A study of Zea mays with 12 samples.

Results

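The effect of Sdw3 on maize (Zea mays) transcripts was compared between the ligular region, the zone at the base of the leaf blade where the ligule forms, and the developing internode, an elongating stem segment. For each gene, d was the log2 ratio of Sdw3 to N18 in the ligular region minus the same ratio in the internode. Both ratios used FPKM + 1, where FPKM is a fragment number corrected for transcript length and sequencing depth. A gene was kept where the higher genotype reached 2 FPKM in both tissues, which left 18055 of 39514 genes. Of the rest, 2623 met that limit in the ligular region alone, 1381 in the internode alone and 17455 in neither.

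The series holds Sdw3 and N18 libraries of the ligular region of leaf 8 and leaf 9, and Sdw3 and N18 libraries of the internode between leaf 7 and leaf 8, all from V7 plants. By the labels, 3 libraries were made for each of these 4 groups, and there are 12 in total. The labels name Sdw3 as a mutant and N18 as a cultivar, and give no allele, agent or treatment beyond these names. They do not say if Sdw3 is in the N18 background. The effect of Sdw3 therefore means the difference between Sdw3 and N18 plants, whatever its genetic source. The deposited tables give 1 FPKM per gene, genotype and tissue, combined by the authors over the libraries. No spread between libraries can therefore be set beside a level, the read depth is unknown, and nothing in the labels tells if replicates were separate plants. The p-values then measure only the spread between these samples, which may be technical.

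Dwarf and semi-dwarf cereals have shorter internodes, and the genes behind them often act in gibberellin, brassinosteroid or auxin pathways. Internodes lengthen through cell division at an intercalary zone followed by elongation and wall thickening. The ligule forms on the leaf, at the boundary of sheath and blade. The difference between Sdw3 and N18 may therefore involve different sets of genes in stem and leaf, which is the question d addresses.

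The combined values of each group were set against marker genes of the labelled tissues. The knotted-type homeobox gene KN-1, a marker of meristem and young stem, was listed at 0 FPKM in both genotypes of the ligular region, and at 180 FPKM in Sdw3 and 172 FPKM in N18 in the internode. The ligule gene lg1 was at 14.96 FPKM in Sdw3 and 14.90 FPKM in N18 in the ligular region, and at 0.183 FPKM in Sdw3 and 0.125 FPKM in N18 in the internode. The other ligule marker, lg2, was at 2.95 FPKM in Sdw3 and 0.925 FPKM in N18 in the ligular region. In the internode lg2 was at 0.612 FPKM in Sdw3 and 0.235 FPKM in N18. None of these genes met the limit in both tissues, so none has a place among the 18055. In bulk samples, fewer cells of a type and less RNA per cell cannot be told apart.

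The median d was 0.03, with the middle of the distribution between -0.20 and 0.23 (quartiles). The genotype ratio itself had a range between quartiles of 0.33 in the ligular region and 0.26 in the internode (log2). A small d therefore went mostly with small ratios in both tissues, and does not by itself show a shared change. The ratio spread more widely in the ligular region than in the internode, with a standard deviation across genes of 0.41 against 0.33 (log2). Across the 18055 genes the ligular and internode ratios correlated weakly, with a Pearson r of 0.25 and a Spearman rho of 0.06. These coefficients describe genes, which are not independent replicates.

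The difference between tissues was tested for each gene as a normal deviate, with a standard error (SE) rebuilt from the authors' test statistics, and was adjusted by Benjamini-Hochberg over 20070 genes tested by the authors in both tissues. With 1 combined value per group, no exact test over samples could be made. At an adjusted p under 0.05, d was positive for 1528 genes (8.48% of the 18018 kept genes with a test) and negative for 1667 genes (9.25%). The size of these counts rests on the rescaling of the SE: without it, 244 genes passed with positive d and 345 with negative d. Of the genes named below, 14 would then not pass, among them sbp29, atGRF2, GRF12, GRF14, lhcb4, C4ppdkZm1, Hsf26, bx2, TIP4-2, ARGOS4 and ZAR1. A d of 1 or more, a doubling of the genotype ratio, was found for 315 genes (1.74%), and a d of -1 or less for 440 genes (2.44%). A d within 0.1 of 0 was found for 4483 genes (24.8%).

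Most genes that passed changed in the ligular region. Calls within a tissue, higher or lower in Sdw3, are those of the authors' deposited table, at a q-value (adjusted p) under 0.05. Of the 18041 kept genes with such a test in the ligular region, 12.4% were called higher in Sdw3 and 11.7% lower; of 18043 in the internode, 6.55% were called higher and 4.59% lower. Among the 1528 genes with positive d, 929 (60.8%) were called higher in the Sdw3 ligular region and not called in the internode, and 216 (14.1%) were called lower in the Sdw3 internode alone. Among the 1667 genes with negative d, 936 (56.1%) were called lower in the ligular region alone and 323 (19.4%) higher in the internode alone. Calls in opposite directions made up 115 genes with positive d (0.638% of all kept genes tested in both tissues) and 207 with negative d (1.15%).

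The sign of d went with the tissue in which a gene was more abundant. For each gene T was the mean over both genotypes of log2(FPKM + 1) in the ligular region minus the same in the internode; the tissues have separate tables, whose scaling against each other is not given in the sources used here. The median T was -1.43 over the 315 genes with d of 1 or more, 1.45 over the 440 genes with d of -1 or less, and -0.17 over all 18055. Genes with large positive d were thus, by the median, more abundant in the internode: their median level was 11.8 FPKM in Sdw3 and 4.64 FPKM in N18 in the ligular region, and 20.5 FPKM in Sdw3 and 27.8 FPKM in N18 in the internode. Genes with large negative d were more abundant in the ligular region, at medians of 17.9 FPKM in Sdw3 and 33.7 FPKM in N18 in the ligular region, and 7.58 FPKM in Sdw3 and 4.97 FPKM in N18 in the internode.

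The genes were ranked by T and divided into 10 bins of equal size. In the bin with the strongest internode preference, 34.4% passed with positive d and 4.65% with negative d; in the bin with the strongest ligular preference, 7.14% passed with positive d and 35.3% with negative d. Across genes, d and T had a Pearson r of -0.37 and a Spearman rho of -0.38, a description over values that come from the same libraries. By construction, a negative relation of d to T and a smaller contrast between the tissues in Sdw3 are the same fact. A difference between ligular region and internode of at least 1 log2 unit was present for 4772 genes in Sdw3 and 5811 genes in N18, and the standard deviation of that difference across genes was 1.13 in Sdw3 and 1.30 in N18.

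**Figure D1:**
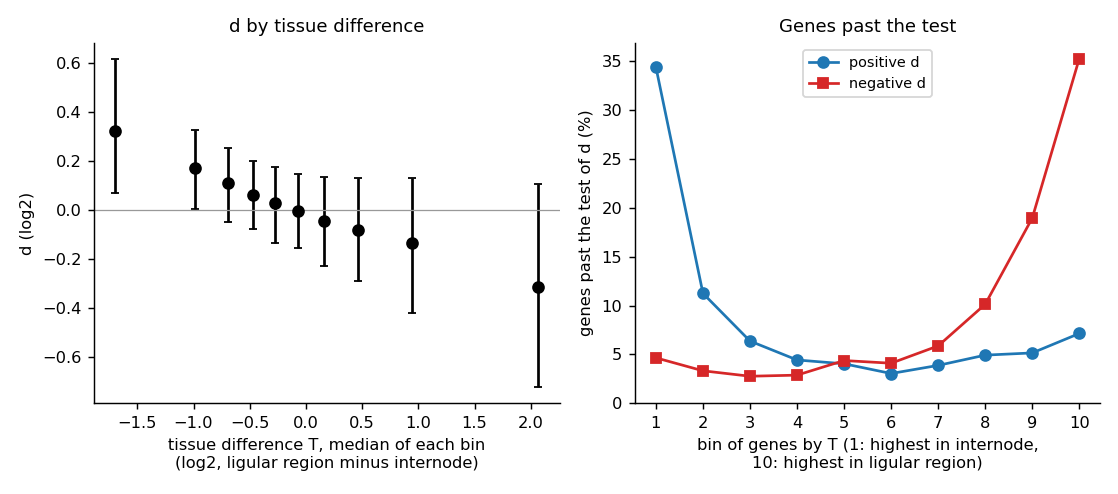
Left, d (log2) as the median (points) and quartiles (bars) of each of 10 bins of the 18055 genes ranked by T, against the median tissue difference T (log2, ligular region minus internode). Right, percent of genes in each bin that passed the test with positive or negative d. Median d was 0.32 in the first bin and -0.31 in the last.

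Genes of cell division had the highest median d of the 37 gene classes examined at the settings used here, but not at a limit of 1 FPKM, at a limit of 5 FPKM, at a pseudocount of 5 or without genes in shared loci. Of 31 kept members of the cell cycle and DNA replication class, 14 passed the test with positive d, 0 with negative d and 17 did not pass, with a median d of 0.40. By the authors' deposited table, 18 of them were called higher and 0 lower in the Sdw3 ligular region, while in the internode 1 was called higher and 4 lower. The class is one of internode genes, with a median T of -2.57, and its summed level was 474 FPKM in Sdw3 and 382 FPKM in N18 in the ligular region, against 1408 FPKM in Sdw3 and 1431 FPKM in N18 in the internode. SLD5 (GRMZM2G164325), a subunit of the GINS complex of the replication fork, was at 7.60 FPKM in Sdw3 and 3.04 FPKM in N18 in the ligular region, and at 29.9 FPKM in Sdw3 and 33.9 FPKM in N18 in the internode, a d of 1.27. RNRS1 (GRMZM2G060163), the small subunit of the ribonucleotide reductase that makes deoxynucleotides, had 20.5 FPKM in Sdw3 and 8.94 FPKM in N18 in the ligular region, against 105 FPKM in Sdw3 and 105 FPKM in N18 in the internode, where it was not called. ROA4 (GRMZM2G162445) was called in opposite directions, at 2.81 FPKM in Sdw3 and 1.13 FPKM in N18 in the ligular region and 19.4 FPKM in Sdw3 and 27.8 FPKM in N18 in the internode (d = 1.33). The sliding clamp gene pcna2 (GRMZM2G108712), chosen after its values were seen, had a d of 0.97.

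Histones, the proteins DNA is wound on, and chromatin proteins of the HMG type also had d above 0 in nearly all cases. Of 20 kept members, 8 passed with positive d, 0 with negative d and 12 did not pass, at a median d of 0.36. Of the 20, 19 had d above 0, against 9767 of all 18055 kept genes. The H2B gene his2b2 (GRMZM2G119071) was at 128 FPKM in Sdw3 and 49.7 FPKM in N18 in the ligular region, 2.59-fold higher in Sdw3, and at 668 FPKM in Sdw3 and 648 FPKM in N18 in the internode, 1.03-fold. The difference of its log2 ratios was 1.33 ± 0.16 (approximate SE), with an adjusted p of 1.52e-14 in the normal test of the difference. On B73 RefGen_v3, the build of the files, the locus of his2b2 spans chr4:63118801-63120057. A second H2B gene, his2b5 (GRMZM2G342515), the H3 gene H3C2 (GRMZM2G401581) and the HMG-type gene nfd106 (GRMZM2G125648) had d of 1.25, 1.21 and 1.27, each higher in the Sdw3 ligular region and not called in the internode. Kinesins, motor proteins of microtubules, passed in 4 of 9 cases, all with positive d; their median of 0.16 became -0.11 at a limit of 5 FPKM. KIN8 (GRMZM2G132371) was at 2.69 FPKM in Sdw3 and 0.849 FPKM in N18 in the ligular region, and at 22.4 FPKM in Sdw3 and 26.8 FPKM in N18 in the internode. KIN13 (GRMZM2G034828) had a d of 1.14. Of 42 genes of DNA methylation and chromatin remodelling, 7 passed, all with positive d, among them the chromomethylase met5 (GRMZM2G005310, d = 1.15) and the remodelling gene chr101a (GRMZM2G071025, d = 1.20), but the median d was only 0.17 and 35 did not pass.

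The list of dividing-cell markers, drawn largely from the same genes, moved with these classes: 17 of its 20 members were above N18 in the Sdw3 ligular region and 10 of 20 in the Sdw3 internode. Its summed level was 2087 FPKM in Sdw3 and 1688 FPKM in N18 in the ligular region, and 5267 FPKM in Sdw3 and 5358 FPKM in N18 in the internode, with no marker at 0. The part that a different share of dividing cells has in these results was not tested.

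Ribosomal protein genes had d above 0 almost throughout. Of 35 kept members, this held for 34, against 9767 of all 18055 kept genes. In the class, 13 passed with positive d, 0 with negative d and 22 did not pass, at a median of 0.36. Their summed level was 6119 FPKM in Sdw3 and 5034 FPKM in N18 in the ligular region, against 9891 FPKM in Sdw3 and 10575 FPKM in N18 in the internode. The acidic stalk protein gene arpp2a (GRMZM2G119809) was called in opposite directions, at 174 FPKM in Sdw3 and 115 FPKM in N18 in the ligular region and 196 FPKM in Sdw3 and 270.1 FPKM in N18 in the internode (d = 1.05). A related stalk protein gene, rpp2a-4 (GRMZM2G075630), was lower in Sdw3 in both tissues but less so in the ligular region, 1.49-fold there and 2.99-fold in the internode. gar2 (GRMZM2G429000), named after a nucleolar protein of fission yeast, was at 90.1 FPKM in Sdw3 and 38.1 FPKM in N18 in the ligular region and at 402 FPKM in Sdw3 and 559.8 FPKM in N18 in the internode. Its log2 ratios differed by 1.72 ± 0.16 (adjusted p of 2.41e-24, normal test of the difference), and its locus is chr10:138833996-138835213.

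In some growth regulators the positive d came from the internode. The SBP-box transcription factors ub2 (GRMZM2G160917) and ub3 (GRMZM2G460544) restrain the production of lateral organs in maize inflorescences. ub3 was at 6.95 FPKM in Sdw3 and 6.58 FPKM in N18 in the ligular region, where it was not called, and at 21.6 FPKM in Sdw3 and 74.9 FPKM in N18 in the internode, 3.46-fold lower. Its log2 ratios differed by 1.87 ± 0.20 (adjusted p of 1.30e-17, normal test). The ub3 locus is chr4:199456663-199460958 and that of ub2 chr1:188215375-188219483. ub2 was at 3.37 FPKM in Sdw3 and 1.82 FPKM in N18 in the ligular region, 1.86-fold higher, and at 24.7 FPKM in Sdw3 and 62.8 FPKM in N18 in the internode, 2.54-fold lower. It had the largest d of the SBP-box class, 1.95, followed by 1.82 for ub3. sbp29 (GRMZM2G067624) was lower in Sdw3 in both tissues, 1.73-fold in the ligular region and 3.52-fold in the internode. These were the 3 of 14 SBP-box genes that passed with positive d; sbp16 (GRMZM2G169270) alone passed with negative d (-0.50) and 10 did not pass, and the class median was 0.12.

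Growth-regulating factors, which promote organ growth together with GIF partners, passed with positive d in 5 of 12 cases, with negative d in 0, and 7 did not pass (median 0.33). In the authors' deposited table, 7 of the 12 were called lower and 0 higher in the Sdw3 internode, and 1 lower and 3 higher in the Sdw3 ligular region. The median moved to 0.49 at a limit of 1 FPKM, to 0.19 at a limit of 5 FPKM and to 0.58 without genes in shared loci. GRF12 (GRMZM2G119359) was at 8.05 FPKM in Sdw3 and 6.26 FPKM in N18 in the ligular region, and at 9.38 FPKM in Sdw3 and 15.6 FPKM in N18 in the internode. GRF14 (GRMZM2G098594) had d of 0.88 with the same pattern. atGRF5 (GRMZM2G105335) was called in opposite directions, at 3.88 FPKM in Sdw3 and 1.53 FPKM in N18 in the ligular region and 20.9 FPKM in Sdw3 and 28.3 FPKM in N18 in the internode (d = 1.36). atGRF2 (GRMZM2G033612) was called higher in the Sdw3 ligular region, at 4.60 FPKM in Sdw3 and 2.19 FPKM in N18, and was not called in the internode, at 11.8 FPKM in Sdw3 and 12.1 FPKM in N18 (d = 0.84).

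**Figure D2:**
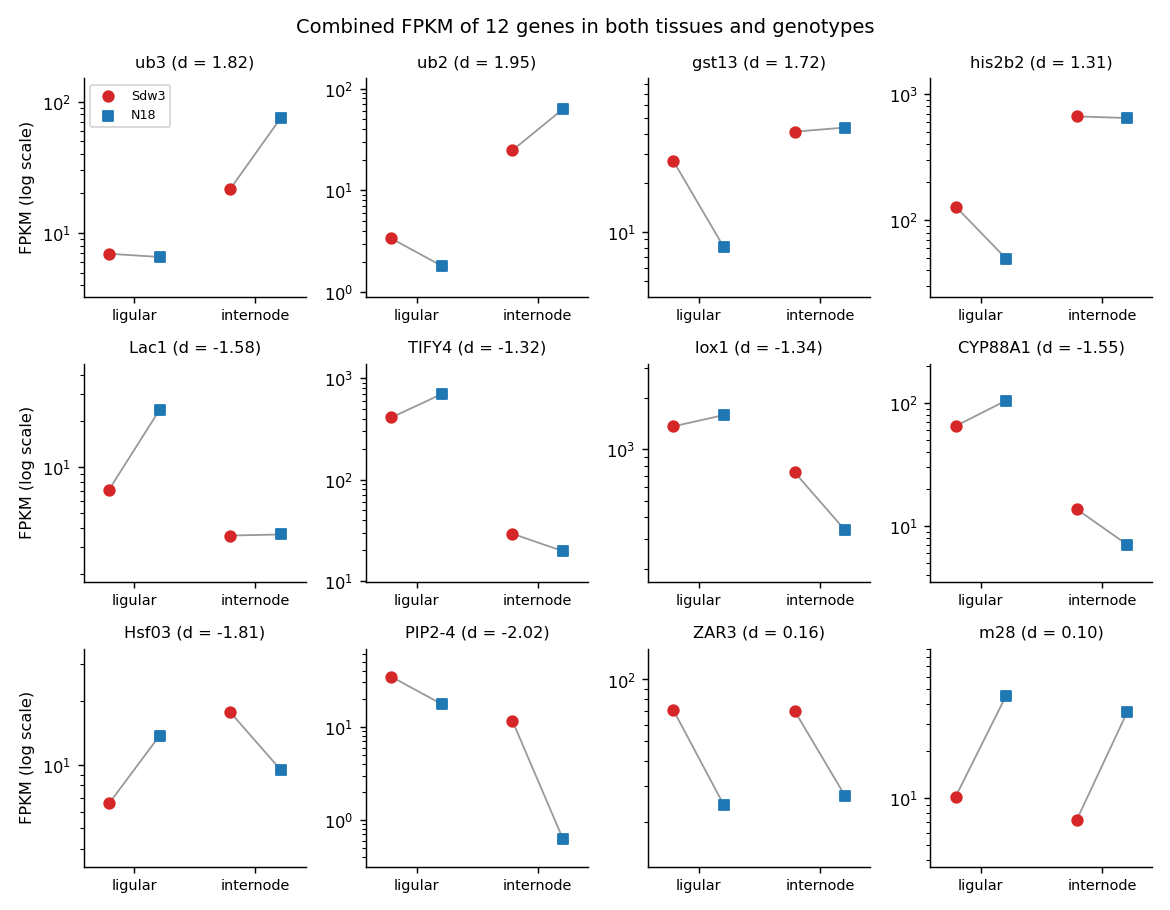
Combined FPKM (log axis) of 12 genes in the ligular region and the internode, with Sdw3 as red circles and N18 as blue squares; lines join the genotypes within a tissue. Lines run the same way in both tissues for PIP2-4, ZAR3 and m28, and his2b2 and Lac1 are called in the ligular region and not in the internode.

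The photosynthesis class, made of 22 leaf-abundant genes, had no common direction: 4 passed with positive d, 2 with negative d and 16 did not pass, at a median of 0.15. Its members that passed with positive d included 3 chlorophyll a/b-binding proteins. cab-m1 (GRMZM2G351977) was at 972 FPKM in Sdw3 and 833 FPKM in N18 in the ligular region, not called, and at 11.9 FPKM in Sdw3 and 33.1 FPKM in N18 in the internode, 2.78-fold lower (d = 1.62). cab48 (GRMZM2G120619) behaved likewise (d = 1.08), whereas lhcb4 (GRMZM2G103101) was 2.003-fold higher in the Sdw3 ligular region and not called in the internode (d = 0.99). C4ppdkZm1 (GRMZM2G306345), the pyruvate phosphate dikinase of the C4 cycle, was higher in Sdw3 in both tissues, 1.98-fold in the ligular region and 4.41-fold in the internode, which gave a d of -0.97. The antenna gene CP24 (GRMZM2G092427), named after its values were seen, was the other with negative d (-0.52). The photosynthetic-cell markers summed to 7623 FPKM in Sdw3 and 6689 FPKM in N18 in the ligular region, with 12 of 13 above N18, and to 1108 FPKM in Sdw3 and 1218 FPKM in N18 in the internode, with 3 of 13 above N18. The marker list includes cab-m1, cab48, lhcb4 and C4ppdkZm1 of the class, so it is no separate evidence. None of the markers was at 0, and the part of photosynthetic cells in these results was not tested.

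The class of lipoxygenase and jasmonate synthesis genes had the largest number of members past the test with negative d among the 37 classes. Its members were matched by symbol, so not all of them need act in jasmonate synthesis. Jasmonates are oxylipin hormones made from linolenic acid by lipoxygenases, allene oxide synthase and cyclase, and oxophytodienoate reductases; they restrain growth and induce defence. Of 19 kept genes, 12 passed with negative d, 1 with positive d and 6 did not pass, and the median d was -0.65. The class is one of ligular genes, with a median T of 1.56 and T above 0 for 17 of the 19. In the bin of all kept genes with the strongest ligular preference, 35.3% passed with negative d. By the authors' deposited table, 12 of them were called lower and 2 higher in the Sdw3 ligular region, while 8 were called higher and 1 lower in the Sdw3 internode. The summed level was 4523 FPKM in Sdw3 and 5484 FPKM in N18 in the ligular region, against 2083 FPKM in Sdw3 and 1276 FPKM in N18 in the internode.

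The genes of this class reached their d in different ways. ts1 (GRMZM2G104843, tasselseed 1), a plastid lipoxygenase that acts in sex determination of the tassel, was at 43.2 FPKM in Sdw3 and 109 FPKM in N18 in the ligular region, and at 7.68 FPKM in Sdw3 and 6.89 FPKM in N18 in the internode, so its d of -1.46 came from the ligular region. The lipoxygenase gene lox1 (GRMZM2G156861) was at 1363 FPKM in Sdw3 and 1585 FPKM in N18 in the ligular region, not called, and at 734 FPKM in Sdw3 and 337 FPKM in N18 in the internode, 2.18-fold higher (d = -1.34). The log2 ratios of ts1 differed by -1.49 ± 0.17 and those of lox1 by -1.34 ± 0.20, with adjusted p of 6.26e-17 and 1.51e-09 (normal test). Their loci are chr2:45820736-45825105 and chr3:168738872-168882335. The oxophytodienoate reductase gene opr2 (GRMZM2G000236) was called in opposite directions, at 5.45 FPKM in Sdw3 and 10.001 FPKM in N18 in the ligular region and 2.14 FPKM in Sdw3 and 0.745 FPKM in N18 in the internode. A second reductase gene, opr5 (GRMZM2G087192), was higher in Sdw3 in both tissues, 1.42-fold in the ligular region and 6.63-fold in the internode (d = -1.78). Chosen after their values were seen, lox10 (GRMZM2G015419) and the allene oxide synthase gene aos2 (GRMZM2G002178) were each lower in the Sdw3 ligular region and higher in the Sdw3 internode, with d of -1.12 and -1.18. The 1 gene with positive d was opr6 (GRMZM2G068947, 0.81), also named after its values were seen.

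Jasmonate response genes had negative d, and 6 of them were called lower in the Sdw3 ligular region while 2 were called higher in the Sdw3 internode, by the authors' deposited table. The class holds TIFY genes, which include the JAZ repressors, and the activator MYC2a (GRMZM2G001930). All 12 kept members had d below 0, against 8288 of all 18055 kept genes. Of the 12, 6 passed with negative d and 6 did not pass (median -0.42). TIFY4 (GRMZM2G445634) was at 411 FPKM in Sdw3 and 699 FPKM in N18 in the ligular region, 1.70-fold lower, and at 29.3 FPKM in Sdw3 and 19.7 FPKM in N18 in the internode, 1.49-fold higher. MYC2a was 1.45-fold lower in the Sdw3 ligular region and 1.38-fold higher in the Sdw3 internode (d = -0.99). Of 23 AP2/ERF transcription factors, a family with many ethylene and stress regulators, 9 passed with negative d, 0 with positive d and 14 did not pass (median -0.40). dbf2 (GRMZM5G889719), a factor of the DRE-binding kind, was at 12.2 FPKM in Sdw3 and 32.4 FPKM in N18 in the ligular region, and at 7.84 FPKM in Sdw3 and 5.28 FPKM in N18 in the internode, where it was not called (d = -1.83). Of 7 WRKY factors, 0 passed in either direction, and their median d was 0.03. At an unadjusted p under 0.05 in the normal test, the count was 1. Of all kept genes with a test, 8.48% passed with positive d and 9.25% with negative d. A count of 0 of 7 is near these shares.

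Heat shock proteins, which refold or protect other proteins, all had negative d. Over all 18055 kept genes, 8288 had d below 0. Of 11 kept genes, 6 passed with negative d, 0 with positive d and 5 did not pass (median -0.48), although the class is more abundant in the internode (median T -1.68). The summed level was 1630 FPKM in Sdw3 and 1844 FPKM in N18 in the ligular region, against 4811 FPKM in Sdw3 and 4281 FPKM in N18 in the internode. The chaperone gene hsp101 (GRMZM2G360681), known for dissolving protein aggregates, was at 48.4 FPKM in Sdw3 and 85.97 FPKM in N18 in the ligular region, and at 229 FPKM in Sdw3 and 191 FPKM in N18 in the internode. hsp1 (GRMZM5G802801) was 1.60-fold lower in the Sdw3 ligular region and 1.36-fold higher in the Sdw3 internode, both called (d = -1.10). Among 8 heat shock factors, which activate such genes, 2 passed with negative d and 1 with positive d. Hsf03 (GRMZM2G164909) was at 6.57 FPKM in Sdw3 and 13.8 FPKM in N18 in the ligular region and at 17.8 FPKM in Sdw3 and 9.47 FPKM in N18 in the internode, called in opposite directions, with log2 ratios that differed by -1.97 ± 0.20 (adjusted p of 1.01e-19, normal test). Hsf26 (GRMZM2G003489) was at 1.34 FPKM in Sdw3 and 3.84 FPKM in N18 in the ligular region, where it was not called, and at 18.9 FPKM in Sdw3 and 6.60 FPKM in N18 in the internode (d = -2.43).

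Most lignin genes were lower in the Sdw3 ligular region. Lignin is polymerised from phenylpropanoids, which phenylalanine ammonia-lyase feeds, in walls that laccases oxidise. Of 11 kept genes, 7 passed with negative d, 0 with positive d and 4 did not pass (median -0.70). This class too is one of ligular genes, with a median T of 1.62 and T above 0 for 10 of the 11. By the authors' deposited table, 10 were called lower in the Sdw3 ligular region, against 11.7% of all kept genes with such a test. In the internode 0 of the 11 were called in either direction. That is near the overall shares there, 6.55% called higher and 4.59% lower. The summed level was 1665 FPKM in Sdw3 and 2567 FPKM in N18 in the ligular region, against 596 FPKM in Sdw3 and 573 FPKM in N18 in the internode. The laccase gene Lac1 (GRMZM2G146152) was at 7.12 FPKM in Sdw3 and 23.6 FPKM in N18 in the ligular region, 3.32-fold lower, and at 3.57 FPKM in Sdw3 and 3.63 FPKM in N18 in the internode. Its log2 ratios differed by -1.71 ± 0.22 (adjusted p of 1.49e-12, normal test), and its locus is chr6:151736924-151739718. A second laccase gene, lac5 (GRMZM2G367668), had a d of -1.28. PAL1 (GRMZM2G074604), a phenylalanine ammonia-lyase, was at 681 FPKM in Sdw3 and 1168 FPKM in N18 in the ligular region, and at 258 FPKM in Sdw3 and 220.0 FPKM in N18 in the internode.

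Other wall genes shared this pattern in part. CesA12 (GRMZM2G142898), a cellulose synthase of secondary walls, was 2.27-fold lower in the Sdw3 ligular region, at 17.4 FPKM in Sdw3 and 39.4 FPKM in N18, and was at 4.30 FPKM in Sdw3 and 4.29 FPKM in N18 in the internode. Of 10 cellulose synthases 3 passed, all with negative d (median -0.20). The COBRA-like gene Bk2L7 (GRMZM2G167497), related to brittle stalk 2, had a d of -1.10, and 3 of the 4 COBRA-like genes passed with negative d. Of 4 cellulases, 3 passed with negative d, Cel24A (GRMZM2G482256) having the largest (-1.25), and 1 with positive d. Of the 4 cellulases, only the gene with positive d reached 5 FPKM in both tissues. Wall-loosening genes were split: the xyloglucan transglucosylase gene xth1 (GRMZM2G119783) was at 141 FPKM in Sdw3 and 320.2 FPKM in N18 in the ligular region (d = -1.46), and the beta-expansin gene expB3 (GRMZM2G474194) at 6.19 FPKM in Sdw3 and 1.36 FPKM in N18 there (d = 1.31). Markers of secondary-walled vascular cells summed to 79.6 FPKM in Sdw3 and 186 FPKM in N18 in the ligular region, with 0 of 13 above N18. They summed to 16.2 FPKM in Sdw3 and 16.8 FPKM in N18 in the internode, where 4 of the 13, all laccases, were listed at 0 in both genotypes. The marker list includes Lac1, lac5 and CesA12, described above, so it is no separate evidence. The part of vascular cell number in the lignin and wall results was not tested.

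**Figure D3:**
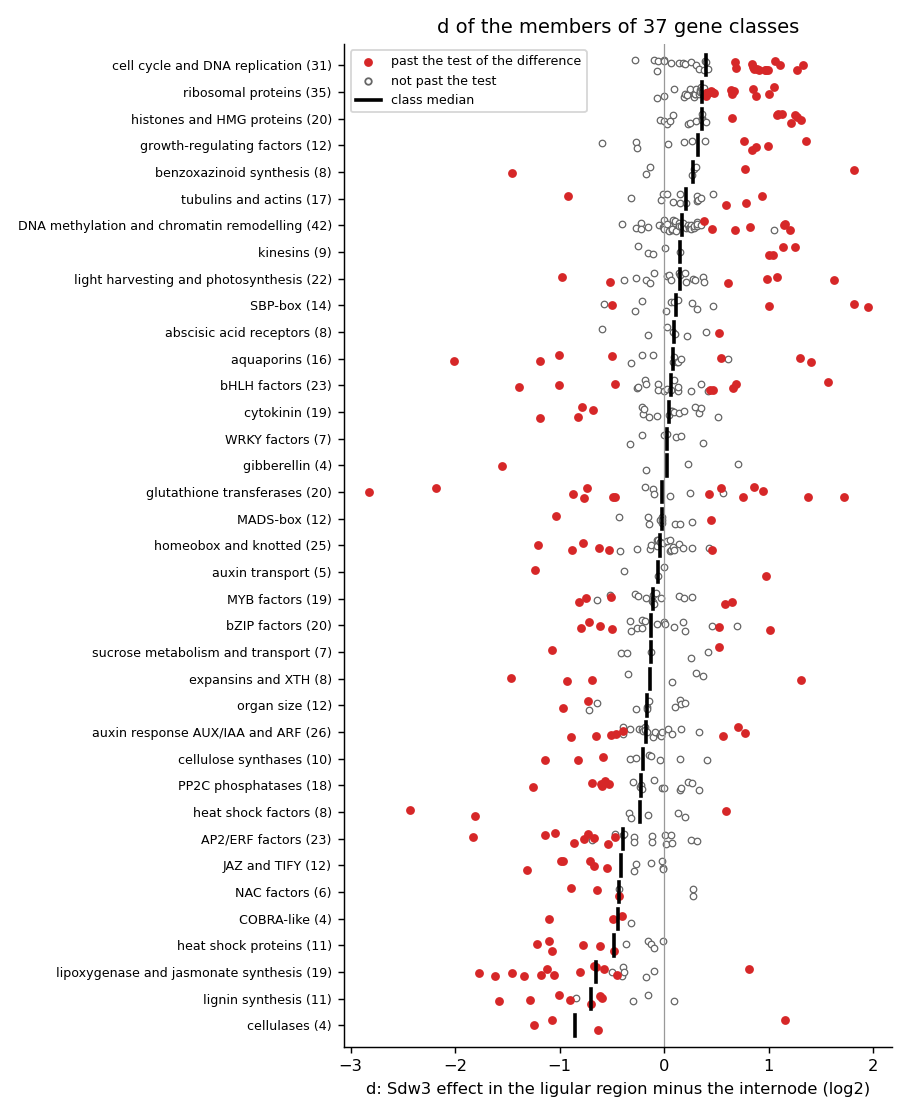
d (log2) of each kept member of 37 gene classes, with class sizes in brackets, ordered by median (black bar); red points passed the test of the difference and open points did not. Medians run from 0.40 for cell cycle and DNA replication to -0.85 for the 4 cellulases.

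Among hormone genes, the largest d were those of single members. In gibberellin synthesis CYP88A1 (GRMZM2G093195), the oxidase of ent-kaurenoic acid, was at 64.98 FPKM in Sdw3 and 105 FPKM in N18 in the ligular region, 1.61-fold lower, and at 13.7 FPKM in Sdw3 and 7.03 FPKM in N18 in the internode, 1.95-fold higher. Both changes were called, and the log2 ratios differed by -1.65 ± 0.17 (adjusted p of 1.60e-19, normal test). Its locus is chr9:26725935-26729883. an1 (GRMZM2G081554), which makes the first committed diterpene of the pathway, had values in the other direction and did not pass: it was at 74.5 FPKM in Sdw3 and 55.3 FPKM in N18 in the ligular region, and at 4.90 FPKM in Sdw3 and 6.19 FPKM in N18 in the internode (d = 0.71, adjusted p of 0.134 in the normal test). The DELLA genes D8 (GRMZM2G144744) and d9 (GRMZM2G024973), repressors that gibberellin removes, had d of 0.23 and -0.17 and did not pass.

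The auxin efflux gene PIN8 (GRMZM5G839411) was called in opposite directions, at 3.49 FPKM in Sdw3 and 6.98 FPKM in N18 in the ligular region and 9.55 FPKM in Sdw3 and 6.93 FPKM in N18 in the internode. So was the cytokinin receptor gene HK1b2 (GRMZM5G833140), at 3.66 FPKM in Sdw3 and 6.86 FPKM in N18 in the ligular region and 15.2 FPKM in Sdw3 and 11.03 FPKM in N18 in the internode (d = -1.18). Of 26 AUX/IAA and ARF genes, 3 passed with positive and 5 with negative d; of 19 cytokinin genes, 4 passed, all with negative d. The homeobox class was near 0, with 1 of 25 passing with positive d and 5 with negative d. In it knox8 (GRMZM2G135447) was at 0.636 FPKM in Sdw3 and 2.78 FPKM in N18 in the ligular region, and at 4.52 FPKM in Sdw3 and 4.54 FPKM in N18 in the internode (d = -1.20).

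Some classes held strong effects of both signs. Of 20 glutathione transferases, detoxifying enzymes, 7 passed with positive and 7 with negative d, at a median of -0.02. gst13 (GRMZM2G126781) was at 27.1 FPKM in Sdw3 and 8.02 FPKM in N18 in the ligular region, 3.38-fold higher, and at 41.1 FPKM in Sdw3 and 43.6 FPKM in N18 in the internode (d = 1.72), and gst11 (GRMZM2G119499) had a d of 1.38. GST25 (GRMZM2G161905) and gst2 (GRMZM2G132093) went the other way, lower in the Sdw3 ligular region and higher in the Sdw3 internode. GST25 was at 14.7 FPKM in Sdw3 and 27.2 FPKM in N18 in the ligular region and at 4.13 FPKM in Sdw3 and 0.303 FPKM in N18 in the internode (d = -2.82), and gst2 had a d of -2.18.

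Benzoxazinoid synthesis, which makes the main defence chemicals of young maize, gave 2 genes with positive d and 1 with negative d of 8. bx1 (GRMZM2G085381), whose product releases indole for the pathway, was at 4.59 FPKM in Sdw3 and 0.679 FPKM in N18 in the ligular region, and at 252 FPKM in Sdw3 and 267 FPKM in N18 in the internode (d = 1.82). The cytochrome P450 gene bx2 (GRMZM2G085661) followed it with a d of 0.77. The dioxygenase gene bx6 (GRMZM6G617209) was at 213 FPKM in Sdw3 and 332 FPKM in N18 in the ligular region, and at 437 FPKM in Sdw3 and 248 FPKM in N18 in the internode, called in opposite directions (d = -1.45). glu1 (GRMZM2G016890), a beta-glucosidase that frees stored benzoxazinoids, was higher in Sdw3 in both tissues, 1.86-fold in the ligular region and 5.11-fold in the internode (d = -1.42).

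Aquaporins, the water channels of membranes, passed in 3 cases with positive d and 4 with negative d of 16. The plasma membrane channel gene PIP2-4 (GRMZM2G154628) was higher in Sdw3 in both tissues, at 34.5 FPKM in Sdw3 and 17.6 FPKM in N18 in the ligular region and 11.6 FPKM in Sdw3 and 0.628 FPKM in N18 in the internode, and the far larger internode fold gave a d of -2.02. NIP3-1 (GRMZM2G176209) was called in opposite directions (d = -1.19). The tonoplast channel genes TIP4-1 (GRMZM2G103945) and TIP4-2 (GRMZM2G108273) were higher in the Sdw3 ligular region and not called in the internode, with d of 1.30 and 1.41. The tonoplast gene TIP2-1 (GRMZM2G027098) was 1.84-fold higher in the Sdw3 ligular region and 1.77-fold higher in the Sdw3 internode, with a d of 0.14 that did not pass.

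The remaining classes had smaller medians or few members past the test. Of 23 bHLH factors 5 passed with positive and 3 with negative d (median 0.06), of 20 bZIP factors 2 with positive and 4 with negative d (median -0.12), and of 19 MYB factors 2 with positive and 3 with negative d (median -0.11). NAC factors passed with negative d in 3 of 6 cases (median -0.43, but -0.18 at a limit of 5 FPKM), and MADS-box factors once in each direction of 12. Tubulins and actins, the subunits of the cytoskeleton, passed with positive d in 3 and negative d in 1 of 17 cases (median 0.21). The PP2C phosphatases, some of which act in abscisic acid signalling, passed with negative d in 6 of 18 cases and with positive d in 0 (median -0.22), while 1 of 8 abscisic acid receptors passed, with positive d. Expansins and xyloglucan transglucosylases passed with positive d in 1 and negative d in 3 of 8 cases, and auxin transport (5 genes) and sucrose genes (7 genes) each had 1 in either direction.

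Further marker lists gave these summed levels. The epidermis markers summed to 102 FPKM in Sdw3 and 85.02 FPKM in N18 in the ligular region, and to 5.62 FPKM in Sdw3 and 4.45 FPKM in N18 in the internode. The phloem markers summed to 395 FPKM in Sdw3 and 374 FPKM in N18 in the ligular region, with 2 of 4 above N18. Of these ligular sums, the gene SH-1 made up 264 FPKM in Sdw3 and 226 FPKM in N18. In the internode the phloem markers summed to 218 FPKM in Sdw3 and 146 FPKM in N18, with 4 of 4 above N18. The inflorescence list, largely MADS-box genes that vegetative shoots also express, summed to 414 FPKM in Sdw3 and 503 FPKM in N18 in the ligular region, and to 383 FPKM in Sdw3 and 446 FPKM in N18 in the internode. The 5 meristem and stem genes together stood at 0.215 FPKM in Sdw3 and 0.255 FPKM in N18 in the ligular region, against 394 FPKM in Sdw3 and 375 FPKM in N18 in the internode. The part of these cell types in the results was not tested.

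**Figure D4:**
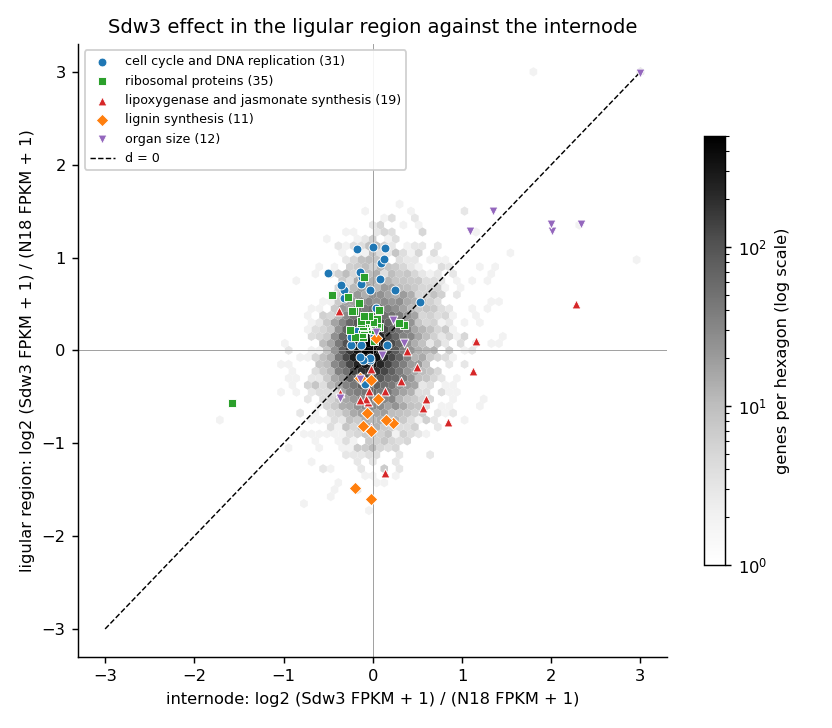
Log2 ratio of Sdw3 to N18 (FPKM + 1) in the ligular region against that in the internode for 18055 genes (grey, counts on a log scale), with the members of 5 classes on top; values beyond 3 either way are drawn at the edge. Most cell cycle and ribosomal protein genes lie above the d = 0 line. Most genes of the lignin class and of the lipoxygenase and jasmonate synthesis class lie below it. The organ-size genes with large ratios lie near that line or below it.

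Genes with d near 0 were mostly called in neither tissue. Of the 4483 with d within 0.1 of 0, 4214 were called in neither tissue, 105 were called higher in both, 51 lower in both and 113 in 1 tissue. Of all kept genes, 12627 (69.9%) were called in neither tissue. Of the 4483 genes with d within 0.1 of 0, 12 changed at least 2-fold (by FPKM + 1) in both tissues. Over all kept genes tested in both tissues, 2.32% (419) were called higher in both and 1.05% (189) lower in both, against 0.638% and 1.15% in opposite directions.

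The shared changes included genes of organ size and regulators. The ARGOS and ZAR genes promote organ growth; ZAR3 (GRMZM2G137546) was at 70.7 FPKM in Sdw3 and 24.3 FPKM in N18 in the ligular region and at 70.3 FPKM in Sdw3 and 26.98 FPKM in N18 in the internode, a d of 0.16. ARGOS5 (GRMZM2G175995) was 2.71-fold higher in the ligular region and 2.17-fold in the internode (d = 0.20). The ARGOS and ZAR genes were not uniform. ARGOS4 (GRMZM2G066029) was higher in Sdw3 in both tissues, at 16.4 FPKM in Sdw3 and 5.79 FPKM in N18 in the ligular region and 8.95 FPKM in Sdw3 and 0.979 FPKM in N18 in the internode, and passed with a d of -0.97; ZAR1 (GRMZM2G446201) did likewise (-0.73). The organ-size class was drawn up to hold CNR genes as well as ARGOS and ZAR genes, so it is not one family. Over its 12 kept genes, 7 were called higher and 2 lower in the Sdw3 ligular region. In the Sdw3 internode, 6 were called higher and 1 lower. Of all kept genes with such a test, 12.4% were called higher and 11.7% lower in the ligular region. The shares in the internode were 6.55% and 4.59%. Of the 12, 10 did not pass the test of the difference.

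Other genes with a shared change came from other families. The abscisic acid receptor gene PYL5 (GRMZM2G057959) was higher in Sdw3 in both tissues, 3.49-fold in the ligular region and 3.30-fold in the internode. The MADS-box gene m28 (GRMZM2G147716) was at 10.2 FPKM in Sdw3 and 45.3 FPKM in N18 in the ligular region and at 7.24 FPKM in Sdw3 and 35.6 FPKM in N18 in the internode, lower in Sdw3 by 4.44-fold and 4.91-fold, with a d of 0.10. Its log2 ratios differed by 0.14 ± 0.19 (adjusted p of 0.674, normal test), which does not show that they are equal.

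Further genes with large d had no class. dxs2 (GRMZM2G493395), of the plastid isoprenoid pathway, was called in opposite directions, at 13.002 FPKM in Sdw3 and 29.1 FPKM in N18 in the ligular region and 4.12 FPKM in Sdw3 and 2.04 FPKM in N18 in the internode (d = -1.86). AGA1 (GRMZM2G340656) was higher in Sdw3 in both tissues, 1.99-fold in the ligular region and 15.1-fold in the internode (d = -2.79); its locus overlaps another gene model, so its reads may be shared. Among the genes without a symbol, the largest positive d past the test was that of GRMZM2G132077 (3.44), at 60.9 FPKM in Sdw3 and 6.73 FPKM in N18 in the ligular region and 339 FPKM in Sdw3 and 459.9 FPKM in N18 in the internode. The largest negative d past the test was that of GRMZM2G366873 (-3.01). It was at 2.42 FPKM in Sdw3 and 8.99 FPKM in N18 in the ligular region. In the internode it was at 10.7 FPKM in Sdw3 and 3.22 FPKM in N18. GRMZM2G132077 and GRMZM2G366873 were named after their values were seen. Over all kept genes d ran from -7.06 to 9.04, and the genes at both ends had no test. Without a test were 12 genes with d of 1 or more and 8 with d of -1 or less.

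By position (B73 RefGen_v3), the median d of a region stayed near 0: over 194 windows of 10 Mb with at least 20 kept genes, the median d ranged from -0.08 to 0.17. Genes called in both tissues in the same direction made up a median of 2.94% of a window's kept genes. The highest shares were 5 of 26 (19.2%) between 30 and 40 Mb on chromosome 10, 26 of 239 (10.9%) between 140 and 150 Mb on chromosome 10, 13 of 122 (10.7%) between 170 and 180 Mb on chromosome 3 and 9 of 89 (10.1%) between 180 and 190 Mb on chromosome 2, a description with no test. At the limit of 2 FPKM itself, the 5 genes just inside had d between -1.95 and 0.41, and the 5 just outside between -1.02 and 1.34.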

How the data were processed

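Total RNA was sequenced as mRNA in 12 libraries. The submitters' processing notes name CASAVA 1.8, bcl2fastq, TopHat2 2.1.0, Cufflinks and the build B73 RefGen_v3; for Cufflinks, the program, version, scaling of libraries and annotation are not given in the sources used. The deposited tables hold 1 combined FPKM per gene, genotype and tissue (the unit is taken from Cufflinks and the column layout), and the authors' test statistic (a score), p-value and q-value between the genotypes, per the file headers.

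From the FPKM, d was computed with a pseudocount of 1, and understates changes of low genes. The difference of the log2 ratios without pseudocount was tested as a normal deviate. Each SE was the log2 ratio over the authors' score, divided by 1.71 (ligular region) or 1.74 (internode), the median factor that brings the score to the authors' p-value; the same factors gave the authors' calls for 98.3% and 99.1% of genes, which is no independent check since they were fitted to those p-values. Adjustment was by Benjamini-Hochberg over 20070 genes, and a gene passed at an adjusted p under 0.05. The code was checked on simulated data drawn with these same SEs, which does not bear on the rescaling. A model over single libraries was planned for tables that hold them and could not be run.

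The members and the 37 classes were chosen with earlier results of these data known. Symbols came from a RefSeq table of a later assembly (Zm-B73-REFERENCE-NAM-5.0), used for names only; 1684 of the 18055 genes had one. Classes were matched by symbol, so unnamed members are missed. Of the kept genes, 1146 lie in a locus with a further gene model. Named genes are the 15 largest d of each sign past the test at 5 FPKM or more, up to 4 per class, the 10 largest shared and 10 largest opposite changes of each direction, and the members of the gibberellin and patterning classes; of the 187 so taken, those named were picked for the text. The work was done in Python 3.11.15 with matplotlib 3.10.9, scipy 1.17.1, pandas 2.3.3 and numpy 2.4.6.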

Additional observations from a re-analysis of the deposited data

Results flagged for a closer look

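The effect of Sdw3 differed between the tissues, by the test of the difference, for 1528 genes with positive d and 1667 with negative d, and for the genes below, which the text names. No explanation was weighed for them.

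Among genes of cell division and chromatin, d was 1.31 for his2b2, 1.25 for his2b5, 1.21 for H3C2, 1.27 for nfd106, 1.27 for SLD5, 1.33 for ROA4, 1.11 for RNRS1, 0.97 for pcna2, 1.25 for KIN8, 1.14 for KIN13, 1.15 for met5 and 1.20 for chr101a. Among growth regulators and ribosomal genes it was 1.95 for ub2, 1.82 for ub3, 1.003 for sbp29, -0.50 for sbp16, 1.36 for atGRF5, 0.84 for atGRF2, 0.996 for GRF12, 0.88 for GRF14, 1.05 for arpp2a, 1.002 for rpp2a-4 and 1.70 for gar2.

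In photosynthesis d was 1.62 for cab-m1, 1.08 for cab48, 0.99 for lhcb4, -0.97 for C4ppdkZm1 and -0.52 for CP24. Among lipoxygenase genes d was -1.12 for lox10, -1.46 for ts1 and -1.34 for lox1. Among other genes of the lipoxygenase and jasmonate synthesis class it was -1.18 for aos2, -1.62 for opr2, -1.78 for opr5 and 0.81 for opr6. In jasmonate response it was -1.32 for TIFY4 and -0.99 for MYC2a. Among stress regulators it was -1.83 for dbf2, -1.81 for Hsf03, -2.43 for Hsf26, -1.10 for hsp1 and -1.08 for hsp101. For wall genes the values were -1.58 for Lac1, -1.28 for lac5, -1.01 for PAL1, -1.14 for CesA12, -1.10 for Bk2L7, -1.46 for xth1, 1.31 for expB3 and -1.25 for Cel24A.

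Hormone and homeobox genes had d of -1.55 for CYP88A1, -1.24 for PIN8, -1.18 for HK1b2 and -1.20 for knox8. Defence and detoxification genes had d of -2.82 for GST25, -2.18 for gst2, 1.72 for gst13, 1.38 for gst11, 1.82 for bx1, 0.77 for bx2, -1.45 for bx6 and -1.42 for glu1. Channels had d of -2.02 for PIP2-4, -1.19 for NIP3-1, 1.30 for TIP4-1 and 1.41 for TIP4-2. The remaining values were -0.97 for ARGOS4, -0.73 for ZAR1, -1.86 for dxs2, -2.79 for AGA1, 3.44 for GRMZM2G132077 and -3.01 for GRMZM2G366873.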

How the results depend on the processing

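With the SE not rescaled, 244 genes passed with positive d and 345 with negative d, and 14 of the named genes no longer passed: sbp29, sbp16, atGRF2, GRF12, GRF14, lhcb4, C4ppdkZm1, CP24, opr6, Hsf26, bx2, TIP4-2, ARGOS4 and ZAR1. At a threshold of 0.01, 964 genes passed with positive d, 368 were called in both tissues in the same direction and 154 in opposite directions; ZAR1 no longer passed. Counts of large d moved with the treatment of low values: d was 1 or more for 484 genes at a pseudocount of 0.1, for 106 at a pseudocount of 5 and for 197 at a limit of 5 FPKM, and -1 or less for 202 genes at a pseudocount of 5 and for 277 at a limit of 5 FPKM. The other 52 counts and medians stayed within 1.5 times their value (the median d within 0.1). The settings were other pseudocounts, limits of 1 or 5 FPKM and a threshold of 0.01. Further settings scaled the columns to a common median or upper quartile, or left out the genes in shared loci. Some of the 52 were fixed by construction. The test uses ratios without pseudocount, so a pseudocount reaches the counts past the test only through the sign of d. Calls in both tissues are the authors', so neither pseudocount nor scaling reaches them. Of the 80 named genes, 60 had a value at a limit of 5 FPKM, 79 without shared loci and 80 under the other settings; the sign of d changed for 1, which did not pass: d of ARGOS5 was 0.20, and -0.06 at a pseudocount of 5. Class medians moved by 0.1 or more in 19 of 259 cases, and 8 of the 37 classes changed sign. Of the 17 classes with a median d of at least 0.2 either way, only the cellulases did so, to 1.15 at a limit of 5 FPKM, where 1 gene was left. At that limit the medians also changed sign for expansins (0.07), kinesins (-0.11), cytokinin genes (-0.10), aquaporins (-0.01), homeobox genes (0.01) and glutathione transferases (0.34), and at a pseudocount of 5 for bHLH factors (-0.0012). The median of the growth-regulating factors lay between 0.19 and 0.58, that of the NAC factors between -0.54 and -0.18, and that of the TIFY genes reached -0.61 without shared loci. The highest class median was that of the growth-regulating factors at a limit of 1 FPKM (0.49) and without shared loci (0.58), and that of the ribosomal protein genes (0.36) at a pseudocount of 5.

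No paired analysis was possible because the tables hold 1 combined value per genotype and tissue, with no columns for single libraries. The fits with the replicate block and those that leave out 1 replicate were therefore not run, and the read depth, which limits the low genes, is unknown.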
